A study of Mus musculus with 34 samples.

Results

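The 9 transcripts described here are long non-coding RNAs chosen by their symbols, which were picked for their measured level (FPKM) in these libraries: Malat1, Neat1, Meg3, Rian, Mirg, Miat, Snhg11, Kcnq1ot1 and Bc1. All 9 were among the 16389 genes of the deposited table, and 8 of the 9 reached the level required for testing, an FPKM (fragments counted per unit of transcript length and of sequencing depth) of at least 1 in at least 3 of the 34 libraries. Since the levels chose them, levels are given as a description with no test. The label "abundant" fitted most but not all of them: by mean FPKM over all libraries Bc1 ranked 7 of 16389, Meg3 131, Snhg11 144, Malat1 173, Rian 458, Miat 1053 and Neat1 1215, but Mirg ranked 5251 and Kcnq1ot1 16287.

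RNA was sequenced from the cortex, hippocampus and thalamus (dissected with the striatum) of 12 male C57BL/6 mice. WT CON mice received no irradiation, transplant or inhibitor. The study's methods give a default age for mice where none is stated, but not the age at which WT CON tissue was taken. GFP-BM CON mice received 1000 cGy of whole-body irradiation at 4 months of age and bone marrow from CAG-EGFP donors, in which a ubiquitous promoter drives GFP. GFP-BM REPOP mice received the same irradiation and transplant, then 3.5 months later the CSF1R inhibitor PLX3397, which removes microglia, at 600 ppm in chow for 14 days, followed by 6 months on control chow. Of WT CON mice there were 3 cortex, 4 hippocampus and 4 thalamus libraries, of GFP-BM CON mice 4, 4 and 3, and of GFP-BM REPOP mice 4 each, with at most 1 library per mouse and region. Both transplanted groups differ from WT CON in irradiation and donor marrow together, which cannot be told apart here.

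Long non-coding RNAs are transcribed, and most are spliced, without being translated. Malat1 and Neat1 stay in the nucleus: Malat1 gathers in nuclear speckles, where splicing factors are stored, and Neat1 is the scaffold of paraspeckles. Meg3, Rian and Mirg are read from the maternal copy of the imprinted Dlk1-Dio3 cluster and carry small nucleolar RNAs and microRNAs in their introns. Miat is a neuron-rich nuclear RNA, Snhg11 is a small nucleolar RNA host gene expressed in neurons, and Kcnq1ot1 silences the genes around it on the paternal chromosome. Bc1 differs from all of these: it is a short cytoplasmic RNA of neurons, made by RNA polymerase III, and represses translation in dendrites.

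Several of the genes are neighbours (GRCm38). Malat1 lies at chr19:5795690-5802672 on the minus strand and Neat1 at chr19:5824708-5845480 on the same strand, 22035 bases apart. Meg3 (chr12:109540996-109571729), Rian (chr12:109603945-109661716) and Mirg (chr12:109734981-109749458) follow each other on the plus strand with gaps of 32215 and 73264 bases. The RefSeq microRNA table places 1, 3 and 10 hairpins within their spans, respectively, and none within the other 6 genes. Miat is at chr5:112213228-112228948 (minus strand), Snhg11 at chr2:158375713-158386474 (plus strand), Kcnq1ot1 at chr7:143213111-143296547 (minus strand) and Bc1 at chr7:144914470-144914623 (plus strand). Kcnq1ot1 lies antisense within Kcnq1, and whether counting used strand is not given in the sources used here, so reads of these 2 genes cannot be separated with certainty. The length behind the FPKM of Neat1 was 3177 bases of a gene that spans 20773, so its values cover part of the gene, whereas Kcnq1ot1 was counted over 83437 bases.

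The starts of 4 of the genes are shown because their levels behaved differently: Malat1 carried the treatment differences, Meg3 and Snhg11 moved almost as one across libraries, and Bc1 moved with none of them. Each RefSeq window (GRCm38.p6) runs from 250 bases before the annotated start to 50 after it, 5′ to 3′ on the gene's strand, and capitals mark the motifs found on either strand among the cAMP response element TGACGTCA, the GC box GGGCGG, the CCAAT box, the TATA box TATAAA and the A box of RNA polymerase III. In order, they lie at chr19:5802623-5802922 (minus strand), chr12:109540746-109541045, chr2:158375463-158375762 and chr7:144914220-144914519 (plus strand).
Malat1: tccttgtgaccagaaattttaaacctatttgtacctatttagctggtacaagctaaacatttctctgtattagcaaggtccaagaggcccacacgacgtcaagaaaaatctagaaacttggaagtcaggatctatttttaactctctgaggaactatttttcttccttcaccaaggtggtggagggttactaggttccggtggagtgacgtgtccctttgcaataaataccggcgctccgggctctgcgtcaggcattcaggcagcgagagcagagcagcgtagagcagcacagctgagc
Meg3: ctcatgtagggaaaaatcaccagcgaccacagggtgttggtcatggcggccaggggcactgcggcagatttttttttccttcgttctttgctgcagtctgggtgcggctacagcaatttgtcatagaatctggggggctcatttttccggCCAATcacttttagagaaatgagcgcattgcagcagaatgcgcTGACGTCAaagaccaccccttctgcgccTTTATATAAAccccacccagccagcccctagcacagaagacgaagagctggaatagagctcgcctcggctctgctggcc
Snhg11: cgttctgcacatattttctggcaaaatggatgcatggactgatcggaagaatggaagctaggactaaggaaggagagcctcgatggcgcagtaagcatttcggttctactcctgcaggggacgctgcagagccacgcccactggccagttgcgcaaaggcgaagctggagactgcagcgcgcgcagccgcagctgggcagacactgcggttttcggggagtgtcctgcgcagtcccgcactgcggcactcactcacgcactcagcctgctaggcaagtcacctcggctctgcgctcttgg
Bc1: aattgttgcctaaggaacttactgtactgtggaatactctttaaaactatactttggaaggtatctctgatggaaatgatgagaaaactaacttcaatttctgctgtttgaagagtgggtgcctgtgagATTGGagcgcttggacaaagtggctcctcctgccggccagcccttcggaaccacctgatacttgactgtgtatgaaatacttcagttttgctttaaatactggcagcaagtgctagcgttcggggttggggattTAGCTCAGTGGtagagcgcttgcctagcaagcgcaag

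Upstream of Meg3 the window held CCAAT at -100, TGACGTCA at -57 and overlapping TATAAA matches on both strands at -29 and -25. The Bc1 window held a CCAAT match on the minus strand at -121 and, 14 bases into the transcribed RNA, the A box match TAGCTCAGTGG. Neither the Malat1 nor the Snhg11 window held any of the 5 motifs. Over all 32851 RefSeq windows of this length, 1.79% held TGACGTCA, 35.7% the GC box, 37.4% CCAAT, 13.6% the TATA box and 4.73% the A box. Of the 9 genes 8 matched a window in this table, and Meg3 had a pair of starts, of which the first is printed.

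Whole reads could be recovered from the FPKM steps of every gene and gave 17085018 to 26010509 reads per library. Of the 34 libraries 3 stood apart in the check of their tissue. The level of a 10-gene list of hippocampus markers (mean log2 level) was between 2.96 and 4.09 in 9 hippocampus libraries but only 0.78, 0.94 and 1.77 in the other 3, WT CON replicate 2 and GFP-BM REPOP replicates 1 and 4, all below the highest cortex library at 2.32. Prox1, the defining factor of dentate granule cells, was at 0.834, 1.04 and 2.80 FPKM in these 3 libraries, against 2.75 to 17 in the other 9, so that the third was not below the lowest of the 9 for this gene. GFP-BM REPOP hippocampus replicate 4 also had the highest striatum marker level of all libraries, 6.91. Hippocampus differences of the members are therefore also given without these 3 libraries.

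The libraries also differed in how strongly GC-rich genes were represented. A GC measure was computed as the median level (log2) in the 1438 most GC-rich genes minus that in the 1438 least GC-rich ones, with the 9 members left out, so that a high value means few reads from AT-rich genes. In the cortex its mean was 1.11 ± 0.305 (SD, n = 3) in WT CON, 0.69 ± 0.0913 (n = 4) in GFP-BM CON and 0.825 ± 0.241 (n = 4) in GFP-BM REPOP. In the hippocampus it was 2.75 ± 0.638, 1.54 ± 0.611 and 2.12 ± 0.56 (n = 4 each), and in the thalamus 2.25 ± 1.13 (n = 4), 0.768 ± 0.217 (n = 3) and 0.84 ± 0.194 (n = 4). The WT CON mean was the highest in every region. By two-sided exact permutation tests of the means, p was 0.0286 for the thalamus of GFP-BM REPOP against WT CON and for the cortex of GFP-BM CON against WT CON, the smallest p these sizes allow, and 0.0571 for the hippocampus of GFP-BM CON against WT CON. Of 45 such tests over 5 library measures, none was under 0.05 after Benjamini-Hochberg adjustment (smallest adjusted p 0.184). The mitochondrial share of reads also moved with the groups. In the hippocampus it was 3.49% to 4.10% in WT CON, below all GFP-BM CON (4.77% to 6.87%) and GFP-BM REPOP libraries (4.26% to 6.2%), with an exact permutation p of 0.0286 for each. In the thalamus it was 3.76% to 6.19% in WT CON and 6.85% to 6.91% in GFP-BM CON (exact permutation p = 0.0571). Its part in the members' differences was not tested. The GC content of the members, for reading the treatment results below beside these values, was 40.3% for Kcnq1ot1, 40.5% for Bc1, 41.5% for Rian, 42.5% for Malat1, 44.8% for Snhg11, 49.2% for Meg3, 51.1% for Neat1, 54.4% for Mirg and 54.9% for Miat.

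Malat1, the speckle RNA, was the only member called between treatment groups. In the cortex the 3 WT CON libraries held 281, 241 and 263 FPKM, the 4 GFP-BM CON libraries 429.6, 451, 389.8 and 359, and the 4 GFP-BM REPOP libraries 332, 419, 415 and 462. Every library of the transplanted mice lay above every WT CON library, and the 2 transplanted groups overlapped. Malat1 rose by 0.63 on the log2 scale (1.55-fold, SE 0.11, limma adjusted p = 0.0350) in GFP-BM CON against WT CON and by 0.63 (1.55-fold, SE 0.11, limma adjusted p = 0.0207) in GFP-BM REPOP against WT CON, with adjustment over all 14710 genes tested and differences taken on log2(FPKM + 0.1). Its difference between the transplanted groups, REPOP minus CON, was -0.01 (SE 0.10). The comparisons share the WT CON libraries, so the 2 values are not separate evidence.

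In the thalamus Malat1 stood at 177, 51.0, 98.7 and 138 FPKM in WT CON, at 326, 324 and 218 in GFP-BM CON and at 318, 353, 517 and 307 in GFP-BM REPOP. Again no WT CON library reached the lowest transplanted one. Malat1 rose 3.47-fold in GFP-BM REPOP against WT CON (log2 1.79, SE 0.34, limma adjusted p = 0.0481), while the difference of GFP-BM CON from WT CON, 1.43 (SE 0.37), did not pass the test (limma adjusted p = 0.0911). GFP-BM REPOP against GFP-BM CON gave 0.36 (SE 0.37). The WT CON libraries differed 3.47-fold among themselves, and their order was the reverse of that of the GC measure, which was 1.27, 3.80, 2.33 and 1.60.

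In the hippocampus the levels were lower and more scattered. WT CON libraries held 14.5, 57.1, 87.6 and 57.2 FPKM of Malat1, GFP-BM CON libraries 152, 160.1, 161 and 82.1, and GFP-BM REPOP libraries 76.9, 82.9, 53.7 and 190.0. One GFP-BM CON library fell within the WT CON range, and GFP-BM REPOP overlapped both groups. The differences were 1.57 (SE 0.51, limma adjusted p = 0.109) for GFP-BM CON against WT CON, 0.99 (SE 0.51, limma adjusted p = 0.539) for GFP-BM REPOP against WT CON and -0.58 (SE 0.51) for GFP-BM REPOP against GFP-BM CON. Without the 3 libraries low in hippocampus markers they became 1.68, 0.67 and -1.0, none of them called. For the other tested members, GFP-BM REPOP against WT CON without these libraries was 0.07 for Meg3, 0.33 for Snhg11, 0.42 for Neat1, 0.25 for Rian, -0.27 for Miat and 0.87 for Bc1, and GFP-BM CON against WT CON was 1.14, 1.36, 1.04, 0.40, 0.15 and 0.11 in the same order. The values for Mirg were -0.0152 and -0.0553. Set beside the values with all libraries below, those of Meg3 and Snhg11 in GFP-BM REPOP became smaller by more than 1.5 times. That of Mirg in GFP-BM REPOP turned from above 0 (mean log2 level 3.76 against 3.63 in WT CON with all libraries) to -0.0152. That of Miat, -0.015 with all libraries, became -0.27.

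**Figure D1:**
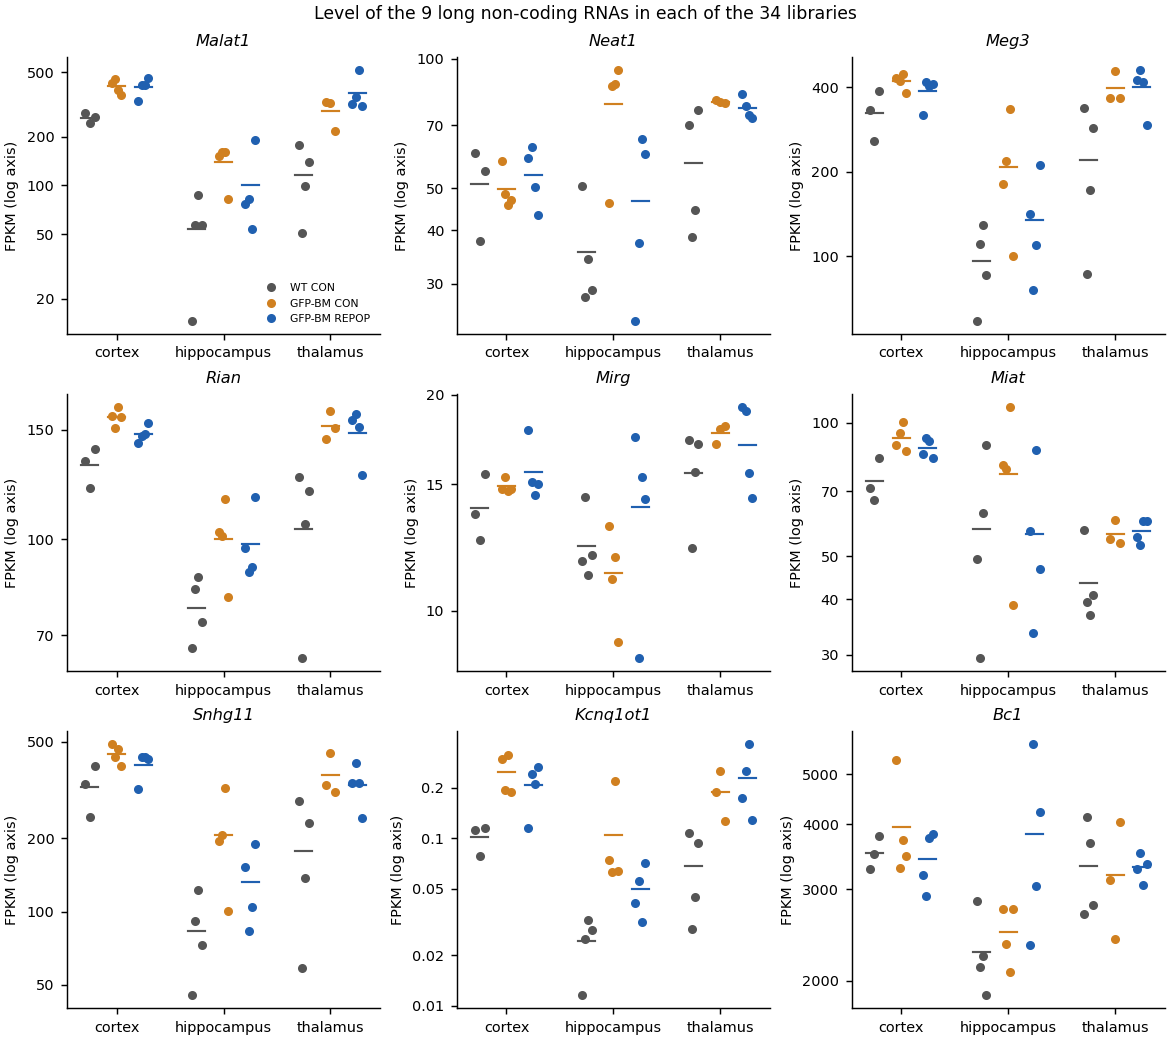
FPKM of each of the 9 long non-coding RNAs in every library (log axis), by region and treatment group, with 1 point per library and a bar at the group mean. Malat1 and Rian in cortex and thalamus, Miat in cortex and Kcnq1ot1 in thalamus have all transplanted libraries above all WT CON libraries, for example Malat1 at 307 to 517 in GFP-BM REPOP thalamus against 51.0 to 177 in WT CON.

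The Malat1 calls depended on how GC content and single libraries were handled. After each library's trend with gene GC content was removed by a spline, the cortex differences were 0.46 (limma adjusted p = 0.0291) for GFP-BM CON and 0.50 (0.0106) for GFP-BM REPOP against WT CON, and the thalamus differences 0.77 (0.0712) and 1.17 (0.0155). Removing trends with both GC content and length gave 0.39, 0.45, 0.54 and 0.93 in the same order. With the GC measure as a covariate the values were 0.41 (limma adjusted p = 0.348), 0.48 (0.0490), 0.36 (0.440) and 0.78 (0.227), and in the hippocampus 0.18 and 0.27. All Malat1 differences from WT CON therefore kept their sign under these 3 corrections, and those in the thalamus became smaller by more than 1.5 times under all 3, as did that of GFP-BM CON in the cortex with GC and length correction or the covariate and both in the hippocampus with the covariate.

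A fit of all 9 groups together, which shares 1 spread over the regions, gave Malat1 an adjusted p of 0.0104 in the hippocampus and 0.0355 in the thalamus for GFP-BM CON against WT CON and 0.00537 for the thalamus of GFP-BM REPOP against WT CON. In the same fit neither cortex difference was called. When libraries were left out singly, the call in the cortex of GFP-BM REPOP against WT CON was lost without WT CON replicate 2 or 3 or GFP-BM REPOP replicate 3 or 4 (adjusted p up to 0.0762), that in the cortex of GFP-BM CON against WT CON was lost in 9 of 11 cases and held without GFP-BM REPOP replicate 1 or 4, and that in the thalamus was lost in 9 of 11 and held without WT CON replicate 1 or 2. Adjusted p values of the thalamus call ranged from 0.00654 to 0.190 over these cases.

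**Figure D2:**
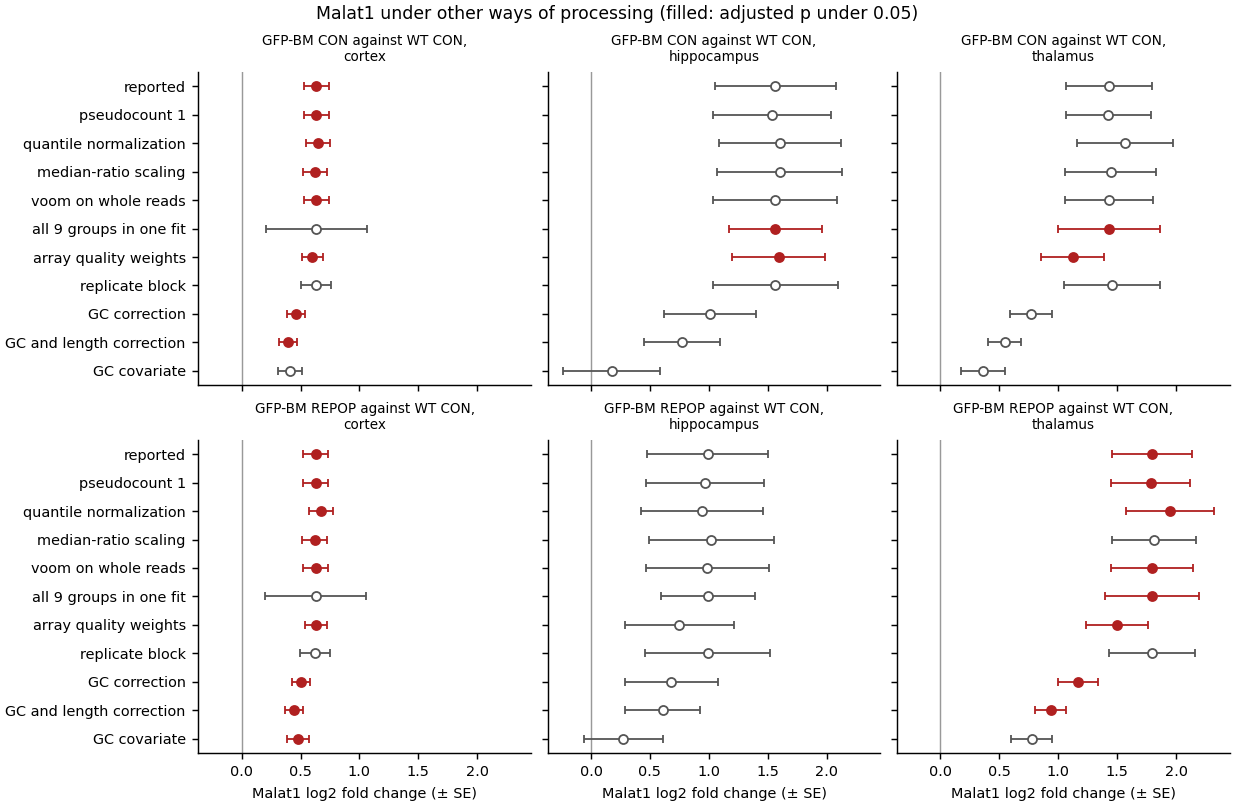
Log2 difference of Malat1 from WT CON in each region under the processing used and the alternatives named on its vertical axis, with points for the estimate, bars for ± 1 SE and filled symbols for an adjusted p under 0.05. The estimates plotted lie above 0 throughout, from 0.18 to 1.95, and are smallest with the GC covariate in hippocampus and thalamus.

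Neat1, the paraspeckle scaffold next to Malat1, did not follow it in the cortex. Its cortex libraries held 37.8 to 60.5 FPKM in WT CON, 45.8 to 57.8 in GFP-BM CON and 43.3 to 62.3 in GFP-BM REPOP, which overlap entirely. In the hippocampus WT CON stood at 50.7, 28.0, 34.3 and 29.0, GFP-BM CON at 46.3, 86.5, 87.4 and 94.3 and GFP-BM REPOP at 24.6, 37.3, 65.2 and 60.1. Of the 4 GFP-BM CON libraries 3 lay above every other hippocampus library, but the fourth fell among the WT CON libraries, and the difference of 1.13 (SE 0.32) did not pass (limma adjusted p = 0.0831). The difference of GFP-BM REPOP from GFP-BM CON there was -0.80 (SE 0.32, unadjusted p = 0.0288, limma adjusted p = 0.389), and -0.62 without the 3 libraries low in hippocampus markers. In the thalamus all 3 GFP-BM CON libraries, 80.3, 79.5 and 78.8, lay above the 4 WT CON libraries, 70.3, 38.6, 44.5 and 76.0, with a difference of 0.53 (SE 0.21, limma adjusted p = 0.207).

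None of the 3 RNAs of the Dlk1-Dio3 cluster was called in a treatment comparison. Meg3 stood at 332, 257 and 386 FPKM in the cortex of WT CON, 433, 420.0, 446 and 380.2 in GFP-BM CON and 319.6, 419, 405 and 409.6 in GFP-BM REPOP. In the thalamus it was at 338, 86.5, 172 and 287 in WT CON, at 366, 456 and 368 in GFP-BM CON and at 424, 462, 417 and 294 in GFP-BM REPOP. The transplanted libraries were mostly higher, but the groups overlapped in all but the thalamus of GFP-BM CON. No Meg3 difference passed the test: against WT CON, GFP-BM CON differed by 0.39, 1.05 and 1.02 and GFP-BM REPOP by 0.27, 0.45 and 1.01 in cortex, hippocampus and thalamus (limma adjusted p 0.137 to 0.674).

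In the cortex Rian had narrow groups. Its cortex libraries held 134, 121 and 139.9 FPKM in WT CON, 158, 151, 163 and 157 in GFP-BM CON and 143, 147, 148 and 154 in GFP-BM REPOP, so that both transplanted groups lay wholly above WT CON. The sizes were small, 0.26 (SE 0.05, limma adjusted p = 0.0605) and 0.17 (SE 0.05, limma adjusted p = 0.178), and neither was called. In the thalamus Rian also lay wholly above WT CON (64.3 to 126) in GFP-BM CON (145 to 161) and GFP-BM REPOP (127 to 159), and in the hippocampus GFP-BM REPOP (88.6 to 117) lay above WT CON (66.9 to 86.9). With the GC trend removed, the Rian differences from WT CON in the hippocampus and thalamus turned to between -0.31 and -0.02, which is the opposite direction. Mirg, a host of clustered microRNAs, stayed between 8.59 and 19.2 FPKM in all libraries, with differences from WT CON of -0.13 to 0.20.

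Miat and Snhg11 are the other neuron-rich nuclear transcripts. In the cortex Miat stood at 71.5, 67.0 and 83.3 FPKM in WT CON, 89.1, 94.8, 100.2 and 86.4 in GFP-BM CON and 85.1, 92.3, 90.9 and 83.4 in GFP-BM REPOP, with all transplanted libraries above WT CON, the lowest by a small margin. The differences were 0.33 (SE 0.07, limma adjusted p = 0.102) and 0.26 (SE 0.07, limma adjusted p = 0.173). Snhg11 in the thalamus was at 285, 58.8, 137 and 231 FPKM in WT CON, 333, 448 and 309 in GFP-BM CON and 339, 408, 339 and 243 in GFP-BM REPOP, a pattern across libraries like that of Meg3. Its differences of 1.24 and 1.1 from WT CON there were not called (limma adjusted p = 0.186 and 0.159), nor was that of 1.28 (SE 0.38, limma adjusted p = 0.0878) in the hippocampus of GFP-BM CON.

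Kcnq1ot1, the antisense silencer, was near the bottom of the table, at 0.0116 to 0.365 FPKM or 23 to 719 reads, and was not tested. In the cortex it stood at 0.112, 0.0786 and 0.115 FPKM in WT CON, 0.296, 0.195, 0.313 and 0.187 in GFP-BM CON and 0.115, 0.242, 0.209 and 0.267 in GFP-BM REPOP. GFP-BM CON lay wholly above WT CON in all 3 regions, and GFP-BM REPOP did so in the thalamus.

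Bc1, the polymerase III transcript, was the most abundant member per length, at 1873 to 5721 FPKM, although it took only 0.0274% to 0.0909% of the reads, while Meg3 took 0.0796% to 0.620% and Malat1 0.0107% to 0.367%. Bc1 showed no common shift with the others. In the cortex its ranges were 3279 to 3805 in WT CON, 3303 to 5328 in GFP-BM CON and 2915 to 3838 in GFP-BM REPOP. In the hippocampus WT CON held 2854, 2124, 2231 and 1873 and GFP-BM REPOP 2341, 5721, 3046 and 4223, with a difference of 0.69 (SE 0.27, unadjusted p = 0.0240, limma adjusted p = 0.474). Its length is only 154 bases, the shortest of the members.

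Counted over the 8 members tested, 1 (Malat1) was called in the cortex of GFP-BM REPOP against WT CON, where 0.734% of all genes tested were called, 0 in the hippocampus, where 0.0136% were, and 1 (Malat1) in the thalamus, where 0.836% were. For GFP-BM CON against WT CON the counts were 1 (Malat1), 0 and 0, beside 0.320%, 0.00% and 0.00% of all genes. For GFP-BM REPOP against GFP-BM CON no member was called in any region, beside 0.0476%, 0.0272% and 0.00%. By the unadjusted limma p under 0.05, 3, 2 and 6 members passed for GFP-BM REPOP against WT CON, beside 2107, 1423 and 3677 of the 14710 genes tested. For GFP-BM CON against WT CON 5, 5 and 6 members passed, beside 2347, 3517 and 3045 genes. For GFP-BM REPOP against GFP-BM CON 0, 1 and 0 passed, beside 628, 1716 and 139 genes, and voom on the recovered reads called 0 members in this comparison too.

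The members lay to one side of the table as a whole. Their median log2 difference in cortex, hippocampus and thalamus was 0.21, 0.39 and 0.52 for GFP-BM REPOP and 0.30, 0.74 and 0.56 for GFP-BM CON against WT CON, beside medians of all genes between -0.06 and 0.02. In the thalamus the shift was not particular to the members. Other long non-coding RNAs and speckle and splicing factors, described below, had medians of similar size. In cortex and hippocampus both lists also had higher mean log2 levels in the transplanted mice. The former (30 measured) stood at 2.63 in GFP-BM CON against 2.41 in WT CON cortex, and 2.36 against 2.00 in hippocampus. The latter stood at 5.27 against 5.07 and 4.86 against 4.36. Not every list rose: the neighbours of Malat1 and Neat1 stood at 2.83 against 2.85 and 2.88 against 3.03. For the transplanted groups set against each other the members' medians were -0.08, -0.51 and -0.02. Together the 9 members took 0.802% to 1.06% of the reads in WT CON cortex, 1.1% to 1.29% in GFP-BM CON and 1.01% to 1.22% in GFP-BM REPOP. In bulk tissue, fewer cells of a type and less RNA per cell cannot be told apart in any of these values.

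Groups that did not overlap were found for 3 of the 9 members in GFP-BM REPOP against WT CON cortex (Malat1, Rian and Miat), where 9.48% of all genes tested did not overlap, for 1 in the hippocampus (Rian, beside 4.00%) and for 3 in the thalamus (Malat1, Rian and Kcnq1ot1, beside 18.8%). In GFP-BM CON against WT CON these were 4 in the cortex (Malat1, Rian, Miat and Kcnq1ot1, beside 16.0%), 1 in the hippocampus (Kcnq1ot1, beside 13.7%) and 6 in the thalamus (Malat1, Neat1, Meg3, Rian, Snhg11 and Kcnq1ot1, beside 23.1%). All were higher in the transplanted mice. No member separated GFP-BM REPOP from GFP-BM CON, beside 3.09%, 6.88% and 4.56% of genes.

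**Figure D3:**
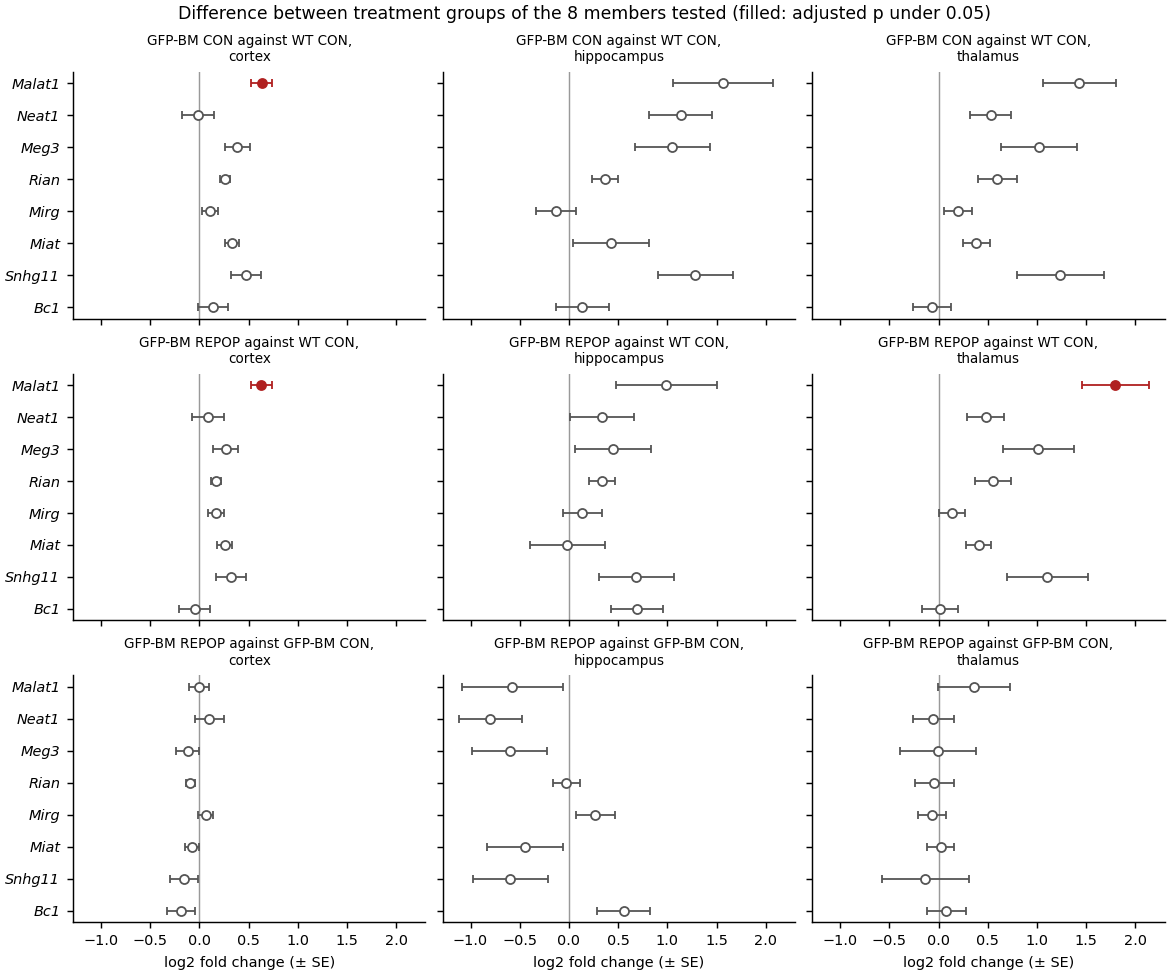
Log2 difference of the 8 tested members in the 3 comparisons and 3 regions, with points for the limma estimate, bars for ± 1 SE and filled points for an adjusted p under 0.05. Only Malat1 has filled points, at 0.63 in the cortex for both comparisons with WT CON and 1.79 in the thalamus of GFP-BM REPOP.

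Whether a treatment difference was itself unlike between regions was tested as a contrast of contrasts over all 9 groups. No member passed in any of the 9 such contrasts by limma, and 5 member tests, 2 of Neat1 and 3 of Bc1, had an unadjusted p under 0.05. The smallest was 0.00597 (limma adjusted p = 0.494), for the Neat1 difference of GFP-BM CON from WT CON, which was 1.14 log2 units larger in the hippocampus than in the cortex. The Malat1 difference of GFP-BM REPOP from WT CON was 1.18 larger in the thalamus than in the cortex (SE 0.59, limma adjusted p = 0.595).

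Regions were also compared within untreated WT CON mice. In the hippocampus 5 of the 8 were lower than in the cortex, where 36.9% of all genes were called: Malat1 fell by 2.54 on the log2 scale (SE 0.44, limma adjusted p = 0.000161), Snhg11 by 2.03, Meg3 by 1.80, Rian by 0.76 and Bc1 by 0.65. The thalamus against the cortex gave 3 lower members, beside 30.0% of genes, with Malat1 at -1.32, Snhg11 at -1.07 and Miat at -0.77. When single libraries were left out, the Miat call was lost in 24 of 34 cases (adjusted p up to 0.159). The thalamus against the hippocampus gave 2 higher ones, Malat1 by 1.22 and Meg3 by 1.08, beside 17.7% of genes. The order cortex, thalamus, hippocampus held for the means of Malat1 (262 ± 20.2, 116 ± 53.9 and 54.1 ± 30.0 FPKM, SD, n = 3, 4 and 4) and each neighbouring pair was called, with the exceptions below. For Meg3 (325 ± 65, 221 ± 113 and 95.9 ± 30.6) cortex and thalamus did not differ beyond their spread.

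The calls against the thalamus rested on single libraries. Malat1 thalamus against cortex lost its call without WT CON cortex replicate 1, 2 or 3 or thalamus replicate 2 (adjusted p up to 0.118), and Snhg11 did so without cortex replicate 1 or 3 or thalamus replicate 2 or 3, falling to -0.63 in 1 case. Malat1 thalamus against hippocampus lost it without hippocampus replicate 1 or thalamus replicate 1, 3 or 4 of WT CON, Meg3 without hippocampus replicate 1 or 4 or thalamus replicate 1 or 4, and Bc1 hippocampus against cortex without cortex replicate 2 or 3 or hippocampus replicate 2 or 4. With GC correction Malat1 thalamus against cortex was -0.79 (limma adjusted p = 0.0501), and with GC and length correction -0.56 (0.0806). Snhg11 there was -1.06 with quantile normalization (limma adjusted p = 0.0614) and -0.68 with GC and length correction (0.0516), and Miat was -0.67 with GC and length correction, with an adjusted p just above the threshold. Malat1 hippocampus against cortex became -1.44 with GC and length correction and remained called.

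Direction in 2 of these region differences turned with the processing. The lower level of Bc1 in the hippocampus became 0.29 higher under quantile normalization, 0.40 under GC correction and 0.18 under GC and length correction, and that of Rian became 0.15 and 0.09 higher under the last 2. The GC measure of WT CON itself differed between cortex (0.904 to 1.46) and hippocampus (1.95 to 3.51). Without WT CON hippocampus replicate 2, the WT CON library low in hippocampus markers, and the 2 such GFP-BM REPOP libraries, Malat1 was at -2.64, Snhg11 at -2.09, Meg3 at -1.87, Rian at -0.79 and Bc1 at -0.63 against the cortex, all still called. Without WT CON cortex replicate 3 the calls over the 3 region pairs fell from 10 to 6.

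The level of several members followed the GC measure of the library closely. For Malat1 the Pearson correlation between log2 level and GC measure was -0.8 in the cortex (n = 11), -0.905 in the hippocampus (n = 12) and -0.945 in the thalamus (n = 11), with Spearman's rho of -0.782, -0.972 and -0.936 and permutation p adjusted over 27 correlations of 0.00519, 0.000116 and 0.000116. Leaving out the 2 libraries farthest from the median gave -0.784, -0.891 and -0.874, and within treatment groups r was -0.714, -0.832 and -0.936. The relation thus also held among libraries of the same treatment.

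Meg3 (-0.964, -0.818 and -0.985), Snhg11 (-0.961, -0.867 and -0.987), Rian (-0.901, -0.837 and -0.982) and Kcnq1ot1 (-0.906, -0.835 and -0.856) were similar in the same order of regions, all with an adjusted permutation p of at most 0.00220. Without the 2 farthest libraries these 4 ranged from -0.596 to -0.960. Miat followed the measure in the cortex (-0.769) and thalamus (-0.805) but not in the hippocampus (-0.313). Neat1 (-0.933) and Mirg (-0.767) did so in the thalamus, where r fell to -0.440 and -0.182 without the 2 farthest libraries and therefore rested on them. Bc1, as AT-rich as Rian, had r of -0.341, -0.120 and 0.521, none passing adjustment. Among all genes tested, r was below -0.8 for 10%, 14.5% and 24.9% in the 3 regions, so such a relation was not particular to the members.

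**Figure D4:**
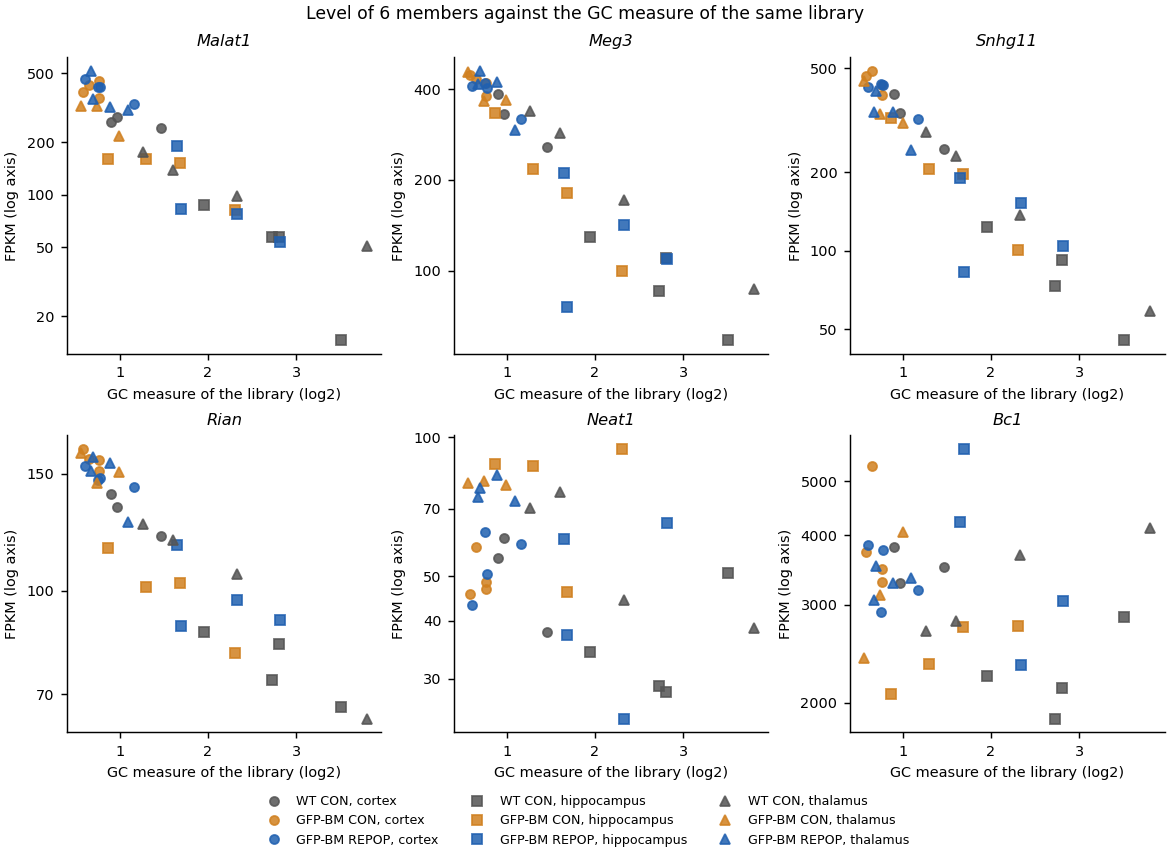
FPKM of 6 members (log axis) against the GC measure of the same library, with 1 point per library, shape for region and colour for treatment group. Malat1 falls along the measure in every region (r from -0.945 to -0.8), while Bc1 does not (r from -0.341 to 0.521).

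With the GC measure as a covariate the thalamus differences of Meg3 from WT CON became -0.16 for GFP-BM CON and -0.11 for GFP-BM REPOP, those of Snhg11 -0.12 and -0.19 and those of Neat1 -0.02 and -0.04. Which part of the differences from WT CON goes with library composition and which with treatment cannot be told apart in the thalamus. There every transplanted library had a lower GC measure (0.565 to 1.09) than every WT CON library (1.27 to 3.80). The same holds for GFP-BM CON against WT CON in the cortex, where the measure was 0.582 to 0.768 against 0.904 to 1.46.

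The members' levels were also compared with each other across the 34 libraries after centring each region, as a description, since points share animals and libraries. Meg3 and Snhg11, on different chromosomes, had r = 0.988, Rian and Snhg11 0.944, and the neighbours Meg3 and Rian 0.927, with 0.985, 0.945 and 0.935 when each treatment group was centred too. Malat1 followed with 0.889 to Snhg11 and 0.871 to Meg3. It did not follow its own neighbour: Malat1 and Neat1 had r = 0.442, which became -0.01 within groups. Mirg was less tied to its cluster (0.454 to Meg3 and 0.491 to Rian). Bc1 had r between -0.401 and -0.021 to every other member, and between -0.564 (Mirg) and 0.0168 (Neat1) when each treatment group was centred too.

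**Figure D5:**
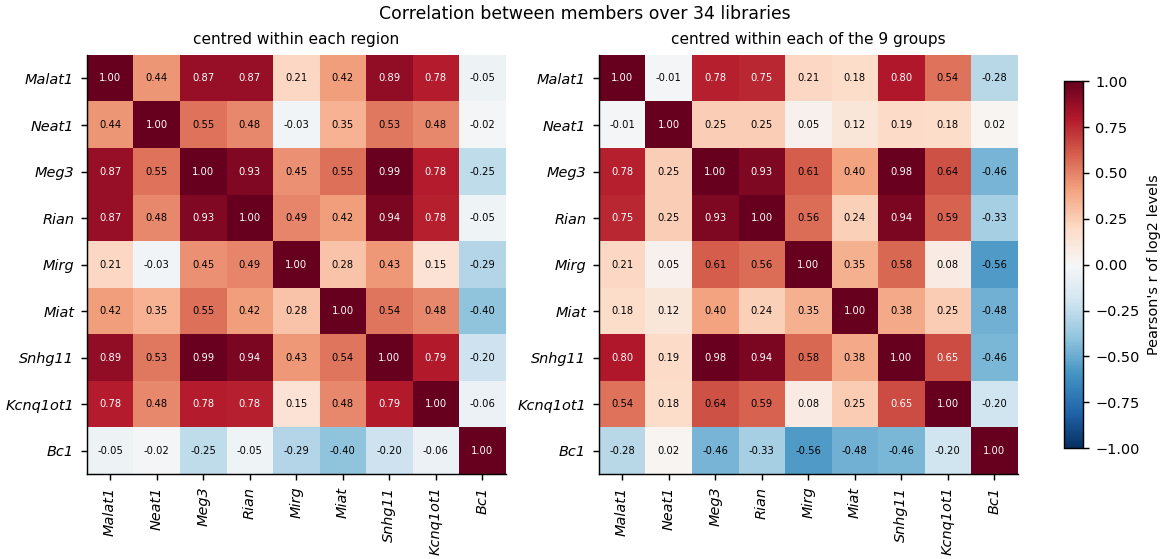
Pearson r between log2 levels of each pair of members over 34 libraries, with levels centred within each region (left) or within each of the 9 groups (right). Meg3, Rian and Snhg11 have the highest values in both panels (0.927 to 0.988), and the Bc1 row lies below 0 in the left panel.

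The genes nearest to each member by the same measure among all genes tested were Lrrc7 (0.958) and Ylpm1 (0.945) for Malat1, Cplane1 (0.971) and Srrm1 (0.965) for Meg3, Cstf2 (0.972) and Nktr (0.970) for Snhg11 and Rufy2 (0.944) and Cstf2 (0.942) for Rian. For Neat1 they were Gm19500 (0.904) and 1700047M11Rik (0.894), for Miat Ntrk3 (0.861) and 9830166K06Rik (0.85), for Kcnq1ot1 A230006K03Rik (0.946) and Ncam2 (0.944) and for Mirg Slc25a37 (0.750) and Dynlt1a (0.719). Bc1 lay nearest to Rps27, a ribosomal protein gene, at 0.773, followed at 0.753 by a gene listed by identifier only.

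Genes that work with the members were examined as lists. Of 25 nuclear speckle and splicing factors, where Malat1 resides, none was called in any treatment comparison by limma. In the thalamus of GFP-BM REPOP and GFP-BM CON against WT CON, 14 and 15 of them had an unadjusted limma p under 0.05. Beside these stood 3677 and 3045 of the 14710 genes tested. The median differences of the 25 there were 0.49 and 0.54, beside -0.05 and -0.06 for all genes. Of 15 paraspeckle proteins, the partners of Neat1, 1 rose: Sfpq, an RNA-binding core protein, by 0.38 (SE 0.07, limma adjusted p = 0.0444) in the cortex of GFP-BM CON against WT CON, where 0.320% of all genes were called. The 6 other Dlk1-Dio3 genes tested, the 8 of the Kcnq1 domain, the 11 neighbours of Malat1 and Neat1, the 15 snoRNA hosts and the 7 translation partners of Bc1 had no call by limma in any treatment comparison, and at an unadjusted p under 0.05 at most 2, 1, 2, 2 and 4 of them passed in any comparison and region. Of all 14710 genes 139 to 3677 passed, depending on the comparison and region. The 25 other long non-coding RNAs tested had no call either. In the thalamus of GFP-BM REPOP and GFP-BM CON, 13 and 9 had an unadjusted limma p under 0.05, beside the same 3677 and 3045 genes. Their medians there were 0.51 and 0.60.

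Between regions of WT CON mice 18 of the 25 speckle and splicing factors were called in the hippocampus against the cortex, 6 higher and 12 lower, where 36.9% of all genes were called, with Luc7l3 at -2.75 and Bclaf1 at -2.67 among the lower. Of the 15 paraspeckle proteins 5 were higher and 3 lower beside the same 36.9%, Nono by 0.41 and Zc3h6 by -1.73. Dlk1, the paternally expressed gene of the cluster that holds Meg3, was higher in the thalamus than in the cortex by 4.24 (SE 0.62), while Meg3 differed there by -0.72 (limma adjusted p = 0.135). Fmr1, whose protein has been linked to Bc1, was lower in the hippocampus by 2.87. These hippocampus differences of list genes are given without GC correction. The GC measure of WT CON also differed between hippocampus (1.95 to 3.51) and cortex (0.904 to 1.46), and its part in them was not tested.

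Markers of other cells moved with the treatment groups too. All 7 tested markers of engrafted bone marrow-derived macrophages rose in cortex and thalamus of GFP-BM REPOP mice against WT CON, Ms4a7 by 3.96 and 3.98. Of all genes 0.734% and 0.836% were called there. In the cortex the mean log2 level of the macrophage markers ran from 1.05 to 1.76 against -1.29 to -0.90 in WT CON. Of 10 microglia markers 4 fell in GFP-BM REPOP against WT CON cortex, Siglech by 1.09, beside the same 0.734% of all genes called. The 12 neuron markers had no call by limma in any treatment comparison. At most 4 had an unadjusted limma p under 0.05, beside 139 to 3677 of all 14710 genes, depending on the comparison and region. Their mean log2 level in the cortex was 7.71 to 7.77 in WT CON and 7.71 to 7.87 in the transplanted mice. In the thalamus it was 6.91 to 7.42 in WT CON, 7.45 to 7.46 in GFP-BM CON and 7.34 to 7.52 in GFP-BM REPOP, so that GFP-BM CON lay wholly above WT CON, and in the hippocampus 6.67 to 7.46, 7.28 to 7.54 and 7.14 to 7.47. The astrocyte marker level in the hippocampus was 5.41 to 5.63 in WT CON, 5.87 to 6.05 in GFP-BM CON and 5.60 to 5.93 in GFP-BM REPOP, again with GFP-BM CON wholly above WT CON. Oligodendrocyte markers there varied with overlapping groups, at 5.01 to 5.72, 5.56 to 7.03 and 4.53 to 6.48 in the same order. Choroid plexus markers ran from 1.45 to 6.46, 1.08 to 6.46 and 2.37 to 2.79. These hippocampus ranges include the 3 libraries low in hippocampus markers. The part of cell composition in the Malat1 differences was not tested.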

How the data were processed

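RNA was sequenced from 34 libraries of 12 mice as described above. Per the labels and the study's methods, the authors aligned paired-end reads with STAR, counted them with featureCounts and deposited 1 table of FPKM values per gene on mm10; limma and edgeR are named in the submitters' processing notes. All 34 value columns were mapped to samples by name. Every value was a whole multiple of what 1 read is worth (tolerance 0.0001), which gave the reads per library. Genes at an FPKM of at least 1 in at least 3 libraries, with a protein-coding, lncRNA or unknown biotype, were tested (14710 of 16389) by limma-trend (limma 3.58.1, R 4.3.3) on log2(FPKM + 0.1), with 1 fit per region over the 3 treatment groups and Benjamini-Hochberg adjustment at 0.05. Comparisons between regions used 1 fit of the 9 groups in which animal entered as a random block (correlation -0.0384). A higher or lower call means an adjusted p under 0.05. Differences are on the log2(FPKM + 0.1) scale, which understates changes of low genes.

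The members and gene lists were chosen with earlier results of these data known, so p-values, adjusted over all genes, are not independent support for them. The text names every member, the 2 genes nearest to each, and, from the lists described, up to 2 called genes with the largest rise and 2 with the largest fall; of these, some are given as counts only. Prox1 was named after its values were seen. The 2 fits without 3 hippocampus libraries and on genes with a GC content were added after the data were seen. SEs cover the spread between animals. The test was tried on simulated data before use. Which libraries ran on which sequencing instrument is not given in the sources used here. Mature microRNAs from the introns were not analysed here.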

Additional observations from a re-analysis of the deposited data

Results flagged for a closer look

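A library that stood far from the other 3 of its group by Dixon's test was found in 6 of 63 groups of 4 (9 members in 7 groups), where chance flags about 1 in 20. In the hippocampus of GFP-BM CON, replicate 4 held 82.1 FPKM of Malat1 against 152 to 161 in the others, replicate 1 held 46.3 FPKM of Neat1 against 86.5 to 94.3, and replicate 3 held 0.218 FPKM of Kcnq1ot1 against 0.0628 to 0.0742. In the cortex of GFP-BM REPOP, replicate 1 was low for both Meg3 (319.6 FPKM against 405 to 419) and Snhg11 (318 against 424 to 434). The GC measure of that library, 1.17, was the highest of its group, and that of GFP-BM CON hippocampus replicate 4, 2.30, was the highest of its own; the part of this in the low values was not tested. In the cortex of GFP-BM CON, replicate 2 held 15.4 FPKM of Mirg against 14.7 to 14.8, a gap that is large only beside the narrow range of the others.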

How the results depend on the processing

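The count of called members over the 3 regions was 2 for GFP-BM REPOP against WT CON. It became 1 with a pseudocount of 0.01, with a stricter filter on low values, with median-ratio scaling and with the GC covariate, 0 with only the 2 groups compared, 4 with all 9 groups in one fit and 6 without the hippocampus and thalamus libraries of WT CON animal 33. In cortex, hippocampus and thalamus, calls among all 14710 genes went from 108, 2 and 123 to 27, 411 and 1954 in the one fit. Without animal 33 they were 0 in the hippocampus and 1788 in the thalamus. For GFP-BM CON against WT CON the count of 1 became 2 with quantile normalization, 7 with all 9 groups in one fit, 8 with array quality weights, 0 with the GC covariate and 4 without animal 33. Calls among all genes went from 47, 0 and 0 to 0, 2849 and 1347 in the one fit and to 97, 2643 and 654 with array quality weights. They were 3, 0 and 0 with the GC covariate, and 0 in the hippocampus and 1179 in the thalamus without animal 33. For GFP-BM REPOP against GFP-BM CON the count of 0 became 1 with array quality weights (Neat1 in the hippocampus, -1.02, limma adjusted p = 0.0497). In that region calls among all genes went from 4 to 1022. Leaving out single libraries gave 1 to 6, 0 to 4, 0 to 0 and, for the 10 region calls, 6 to 12; the highest count of both first comparisons came without WT CON thalamus replicate 1, the WT CON thalamus library with the lowest GC measure. Adding the replicate block gave counts of 0, 0 and 0. Same-numbered samples are different animals, and of 32 such pairs 5 had a correlation of deviations over 0.1 (range -0.433 to 0.490), so the numbers do not pair the samples.

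Signs turned in these cases, besides that of Mirg in the hippocampus of GFP-BM REPOP against WT CON given above. Malat1 in GFP-BM REPOP against GFP-BM CON cortex was 0.0249 with quantile normalization, 0.0363 with array weights, 0.0392 with GC correction, 0.0538 with GC and length correction, 0.0653 with the GC covariate and -0.0694 to 0.0885 with single libraries left out; in the hippocampus it was 0.10 with the GC covariate. With the GC covariate in the thalamus, Meg3 was -0.11 and -0.16, Snhg11 -0.19 and -0.12 and Neat1 -0.0417 and -0.0152 for GFP-BM REPOP and GFP-BM CON against WT CON. Rian with GC correction was -0.0248 and -0.31 in the hippocampus and -0.22 and -0.23 in the thalamus for the same comparisons, and with GC and length correction -0.26 (hippocampus, GFP-BM CON), -0.17 and -0.18 (thalamus). In WT CON hippocampus against cortex, Bc1 was 0.29, 0.40 and 0.18 with quantile normalization, GC correction and both corrections, and Rian 0.15 and 0.0857 with the last 2. The causes were not tested. Groups of 3 or 4 animals limit what can be called, and Kcnq1ot1 has too few reads per base for a test.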
